A study of Mus musculus with 6 samples.

Results

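Of the 5427 regions called as bound by Gli3 in the mandibular prominence (MNP), 402 (7.41%) were neither shared with the whole face, nor shared with Hand2, nor at the start of a protein-coding gene. These 402 MNP-only distal Gli3 peaks without Hand2 were chosen by 3 criteria: no base shared with a Gli3 peak of the whole face, no base shared with a Hand2 peak of the MNP, and a midpoint more than 1 kb from the 5′ end of every one of 21951 protein-coding genes (mm10, GENCODE). The peaks came from ChIP-seq with an anti-FLAG antibody on CD1 mouse embryos at E11.5. Gli3 was precipitated from the whole face and from the MNP of embryos with the genotype Gli3 3XFlagbio, and Hand2 from the MNP of embryos labelled Hand2 3XFlagbio, an allele that the study's list of reagents names Hand2 3xFlag. In both lines the tag sits in the endogenous gene, so that all tagged groups share the antibody. The whole face comprised the frontonasal, maxillary and mandibular prominences and so included the MNP. Each of the 3 groups had 2 replicates, each made from pooled embryonic tissue, and a mock ChIP on untagged wild-type tissue served as control. One text of the series names E10.5 instead of E11.5, the age that every sample carries. Each group is 1 list of merged intervals without heights, read numbers or q-values, so that the depth behind a peak is unknown and no value has an error between embryos. Intervals and tests count peaks, which are not replicates of a condition and may share sequence with one another.

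Gli3 is a zinc finger TF of the Hedgehog pathway that acts mainly as a repressor where the ligand is absent and can activate where it is present. Gli proteins recognise the canonical Gli-binding motif (cGBM) GACCACCC with high affinity, and related divergent motifs (dGBM) such as GACCTCCC with lower affinity. Hand2 is a bHLH TF of the distal MNP that binds E-boxes, among them CAGATG. A further TF enters below because of its motif: REST, a zinc finger repressor that silences neuronal genes outside neurons. The REST element consists of a left and a right arm, here searched as CAGCACC and GGACAG. In the usual element the arms lie 2 bp apart, and elements with a wider spacing are also known.

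The sequences below show the motifs on which the results turn, with the letters of the motif in capitals, read 5′ to 3′ from mm10. The first set holds both arms 2 bp apart. Of the 9 such peaks with a midpoint in an intron of a protein-coding gene, 8 are shown.
*Nsf* intron, chr11:103920829-103920859, plus strand: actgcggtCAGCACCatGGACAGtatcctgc
*Syt7* intron, chr19:10403275-10403305, plus strand: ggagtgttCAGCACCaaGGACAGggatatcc
*Crtac1* intron, chr19:42425407-42425437, minus strand: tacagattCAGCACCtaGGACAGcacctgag
*Dab1* intron, chr4:103875737-103875767, plus strand: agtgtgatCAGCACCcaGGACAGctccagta
*Csmd2* intron, chr4:128042808-128042838, plus strand: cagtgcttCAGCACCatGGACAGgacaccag
*Crhr2* intron, chr6:55108501-55108531, plus strand: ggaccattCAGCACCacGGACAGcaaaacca
*Vrk3* intron, chr7:44770189-44770219, plus strand: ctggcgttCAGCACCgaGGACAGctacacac
*Megf11* intron, chr9:64666722-64666752, plus strand: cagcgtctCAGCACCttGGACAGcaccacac

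In the second set the same arms lay 9 bp apart. The first pair of lines gives both peaks with 4 such pairs, which share a tandemly repeated unit. The other 3 lines come from peaks with a single pair and a unique centre, of which the first and the next have the fewest soft-masked bases and the last the most.
nearest *Esp22*, chr17:39107270-39107473, minus strand: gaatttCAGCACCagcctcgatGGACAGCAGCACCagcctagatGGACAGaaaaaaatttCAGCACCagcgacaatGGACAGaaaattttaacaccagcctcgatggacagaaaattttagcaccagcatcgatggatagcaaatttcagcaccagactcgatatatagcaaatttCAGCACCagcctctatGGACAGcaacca
nearest *Scgb2b21*, chr7:33543506-33543710, plus strand: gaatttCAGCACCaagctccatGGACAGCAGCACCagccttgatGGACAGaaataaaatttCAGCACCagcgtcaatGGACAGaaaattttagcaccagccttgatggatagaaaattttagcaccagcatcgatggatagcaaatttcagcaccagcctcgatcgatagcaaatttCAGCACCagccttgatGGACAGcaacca
nearest *Gpatch2l*, chr12:86213253-86213290, minus strand: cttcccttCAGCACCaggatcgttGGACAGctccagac
nearest *Asrgl1*, chr19:9482747-9482784, plus strand: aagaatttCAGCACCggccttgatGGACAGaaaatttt
nearest *Vmn1r29*, chr6:58330868-58330905, minus strand: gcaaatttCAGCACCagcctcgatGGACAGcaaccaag

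The third set holds the cGBM. Both peaks with more than 1 copy lie in introns and carry it in a tandem repeat, shown over up to 300 bases, and the lines after them give single copies in introns.
*Arhgap17* intron, chr7:123339810-123340077, minus strand: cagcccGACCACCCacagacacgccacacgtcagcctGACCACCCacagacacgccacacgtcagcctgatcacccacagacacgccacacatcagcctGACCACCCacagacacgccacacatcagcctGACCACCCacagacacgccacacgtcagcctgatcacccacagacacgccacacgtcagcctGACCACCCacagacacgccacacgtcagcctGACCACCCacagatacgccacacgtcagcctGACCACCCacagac
*Dnajc21* intron, chr15:10465863-10466162, minus strand: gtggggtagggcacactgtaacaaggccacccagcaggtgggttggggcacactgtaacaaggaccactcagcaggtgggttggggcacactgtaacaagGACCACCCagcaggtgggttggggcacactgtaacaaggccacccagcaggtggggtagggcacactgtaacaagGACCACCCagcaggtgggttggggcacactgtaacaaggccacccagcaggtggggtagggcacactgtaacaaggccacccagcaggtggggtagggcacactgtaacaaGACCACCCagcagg
*Dnm3* intron, chr1:162224899-162224930, plus strand: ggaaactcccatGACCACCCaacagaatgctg
*Prrx1* intron, chr1:163310603-163310634, plus strand: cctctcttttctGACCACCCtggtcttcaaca
*Cacna1g* intron, chr11:94438326-94438357, plus strand: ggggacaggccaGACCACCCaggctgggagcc
*Tmem104* intron, chr11:115220086-115220117, minus strand: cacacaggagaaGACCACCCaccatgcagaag
*Sox6* intron, chr7:115860938-115860969, plus strand: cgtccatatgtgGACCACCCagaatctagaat

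The 402 peaks had a median width of 411.5 bp (quartiles 292 and 682 bp, range 158 to 3653 bp). The median of the 468 MNP-only distal peaks with Hand2 was 716 bp, that of the 878 MNP-only promoter peaks without Hand2 607 bp, and that of the 814 peaks of both tissues without Hand2 395 bp. These 3 classes serve as comparisons throughout. In the 200 bp around the midpoint, the median GC content was 55.0%, against 63.0%, 70.0% and 55.5% in the same order. The nearest 5′ end of a protein-coding gene lay at a median of 17744.5 bp (quartiles 3214 and 74170.5 bp). The 5 peaks just inside the promoter limit had their midpoints 1001 to 1067 bp from a 5′ end, and the 5 peaks just outside it 972 to 998 bp. The median distance to the nearest Hand2 peak was 12504.5 bp, and to the nearest whole face Gli3 peak 119856 bp. Of the 402, 73 (18.2%) lay within 1 kb of a Hand2 peak and 16 (3.98%) within 1 kb of a whole face Gli3 peak. The closest 5 stood 17 to 54 bp from a Hand2 peak, and the closest 5 to a whole face peak stood 87 to 158 bp away. The 5 peaks that just failed these criteria shared 5 to 27 bp with a Hand2 peak and 8 to 104 bp with a whole face peak. "Without Hand2" and "MNP-only" therefore mean that the merged intervals do not touch. The whole face included the MNP, so that MNP-only peaks are those not called in a sample that held the same tissue. Peaks of both tissues are those called in both lists. A share that differs between these classes is not a difference between separate tissues.

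Features of place, repeats, copies and arm pairs were chosen after the data were seen, and their two-sided Fisher's exact tests were adjusted by Benjamini-Hochberg over 21 tests. With copies left out, the adjustment ran over a separate family of 18 tests. The label distal holds for the 5′ ends of genes and not for every annotated transcript. The annotation gives many genes further starts inside the gene, and 127 of the 402 peaks (31.6%, 95% Wilson interval 27.2 to 36.3) had a midpoint within 1 kb of such another start of a protein-coding gene. A further start of this kind was more frequent among the distal peaks with Hand2 (218 of 468, 46.6%, q = 1.0e-05) and less frequent among the 577 distal peaks of both tissues without Hand2 (61, 10.6%, q = 1.5e-15). The largest of these peaks covered 3387 bp at *Nr2f2*, an orphan nuclear receptor gene, 515 bp from a start inside the gene and 7355 bp from its 5′ end. Starts of noncoding genes or pseudogenes lay within 1 kb of 68 peaks (16.9%), against 116 distal peaks with Hand2 (24.8%, q = 0.00516; 17.1% against 21.3% and q = 0.177 with sequence present in copies left out) and 33 distal peaks of both tissues (5.72%, q = 4.0e-08). Among them were the starts of the microRNA genes *Mirlet7i*, 90 bp from a midpoint, and *Mir148a*, 726 bp from one, and of *Snhg8*, a host gene of a small nucleolar RNA, at 330 bp. Either kind of start was near 172 peaks (42.8%), and 230 peaks were near neither. By midpoint, 158 peaks (39.3%) lay between genes, 133 (33.1%) in introns, 44 (10.9%) in UTR exons and 26 (6.47%) in coding exons of protein-coding genes, with 24 and 17 in exons and introns of noncoding genes. The share between genes was not told apart from that of the distal peaks of both tissues (42.5%, difference -3.16 percentage points, interval -9.34 to 3.11, and -8.43 points with q = 0.0153 with copies left out), and higher than that of the distal peaks with Hand2 (19.9%, q = 6.8e-10). *Nr2f2*, *Mirlet7i*, *Mir148a* and *Snhg8* were named after their values were seen.

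The cGBM was rare in these peaks. The central 200 bp held GACCACCC in 11 of the 402 (2.74%, interval 1.53 to 4.83), against 225 of the 814 peaks of both tissues without Hand2 (27.6%, interval 24.7 to 30.8). The difference of -24.9 percentage points (interval -28.3 to -21.3) passed Fisher's exact test after Benjamini-Hochberg adjustment over 30 motifs in 3 comparisons (q = 5.0e-29). The classes of this comparison were split by whole face Gli3 peaks, and Gli3 binds GACCACCC. The difference, and the odds against the same peaks given next, are therefore tied to the selection and are no independent result. The same holds for the difference in the dGBM from these peaks, given below. With log2 width and GC content in a logistic model, the odds of holding the cGBM were 0.0728 times those of the peaks of both tissues (interval 0.0390 to 0.136). In the same model they were 0.455 times those of the distal peaks with Hand2 (interval 0.201 to 1.03) and 2.18 times those of the promoter peaks (interval 0.805 to 5.88), and both intervals include 1. The share was not told apart from that of the distal peaks with Hand2 (16 of 468, 3.42%, difference -0.682 points, interval -3.07 to 1.79, q = 0.949), nor from that of the promoter peaks without Hand2 (11 of 878, 1.25%, difference 1.48 points, interval -0.0650 to 3.65, q = 0.191). In windows of equal length 2 kb to either side of the 402 peaks, 5 of 804 (0.622%) held the motif, a value given without a test. Over whole peaks 21 of the 402 (5.22%) held at least 1 copy. These peaks contained 30 copies in all, or 128 per megabase, where the other Gli3 MNP peaks had 210, the whole face peaks 842, the Hand2 peaks 29.1 and the assembled chromosomes 17.2.

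Of the 30 copies, 11 stood in just 2 peaks. A peak of 565 bp in an intron of *Arhgap17* held 7, and a peak of 455 bp in an intron of *Dnajc21*, a DnaJ co-chaperone gene, held 4. Both are printed above, *Dnajc21* only over a part that does not show all 4 copies. In both the motif lay in a tandem repeat, of which some units carried it and others a changed form. The other 19 peaks with the cGBM held 1 copy each. By the number of copies and then by position, the next were a peak 16411 bp from *Glrp1*, one in an intron of *Dnm3*, one in an intron of *Prrx1* and one in a UTR exon of *Cuedc1*. The *Dnm3* peak lay 1689 bp from the start of the microRNA gene *Mir214*, 212 bp from a whole face Gli3 peak and 262 bp from a Hand2 peak. *Prrx1* encodes a homeodomain TF of craniofacial mesenchyme, and its peak lay 3208 bp from the 5′ end of the gene with its single copy outside the central 200 bp. Of all copies in the 402 peaks, 11 (36.7%) lay within 50 bp of the midpoint, against 185 of 315 (58.7%) in the peaks of both tissues. Among GACCNCCC sequences of whole peaks, the fifth base was A in 30 of 59, T in 11, C in 12 and G in 6. In the peaks of both tissues it was A in 315 of 477 and T in 112. The dGBM as GACCTCCC stood in the central 200 bp of 5 peaks (1.24%), below the 70 of 814 of the peaks of both tissues (q = 4.8e-07) and not told apart from the distal peaks with Hand2 (7 of 468, q = 1).

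**Figure D1:**
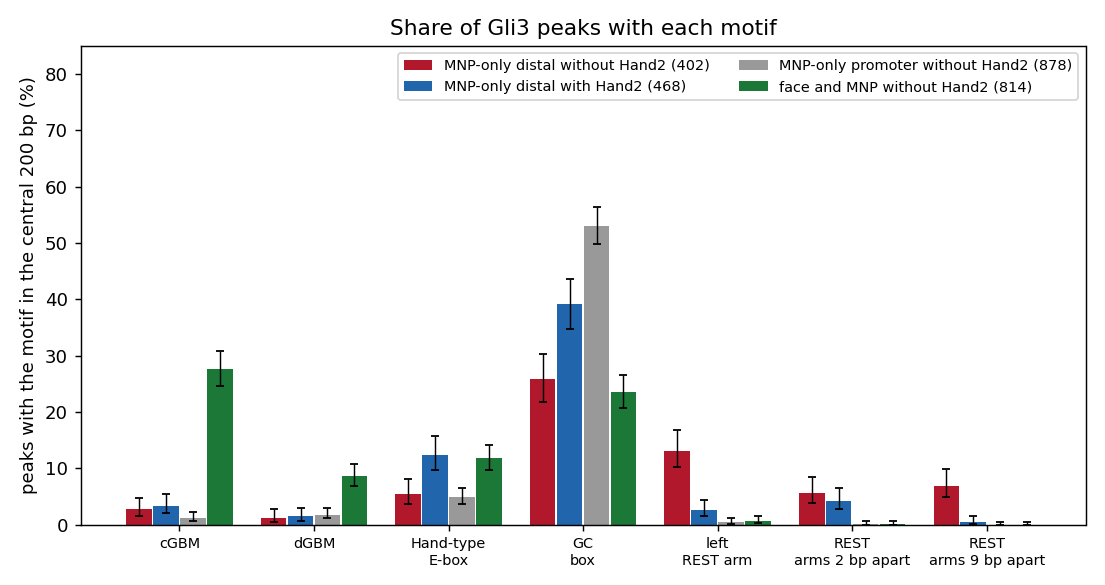
Share of peaks (y axis, %) whose central 200 bp hold each motif (x axis) in 4 classes of Gli3 MNP peaks, with 95% Wilson intervals as error bars. The MNP-only distal peaks without Hand2 have the cGBM in 2.74% against 27.6% in the peaks of both tissues, a difference tied to the selection by whole face Gli3 peaks. They have the left REST arm, TTCAGCACC, in 13.2% against at most 2.56% in the other classes.

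The E-box CAGATG was less frequent than in 2 of the 3 classes. It stood in the central 200 bp of 22 peaks (5.47%), against 58 of the distal peaks with Hand2 (12.4%, q = 0.00268) and 96 of the peaks of both tissues (11.8%, q = 0.00268). The promoter peaks had it in 4.90%, which was not told apart. The first difference was not called with a 500 bp promoter limit (q = 0.0768), nor the second with a 5 kb limit (q = 0.0646). The classes of the first comparison were split by Hand2 peaks, and Hand2 binds CAGATG. That difference is therefore tied to the selection and is no independent result. Any E-box, CANNTG, stood in 41.5% of the windows and in 62.2% of those of both tissues (q = 2.3e-10), and CAGCTG in 9.20% and 19.2% (q = 4.1e-05). In windows 2 kb to either side of the 402 peaks, 99 of 804 (12.3%) held CAGATG, 63.2% any E-box and 9.08% CAGCTG, values given without a test. The Meis and Tgif motif TGACAG (6.72% against 11.9%, q = 0.0221) and the CTCF core (0.249% against 2.83%, q = 0.00822) were lower than in the peaks of both tissues as well. The GC box GGGCGG, bound by Sp and Klf proteins, stood in 104 windows (25.9%), which was below the distal peaks with Hand2 (39.1%, q = 3.3e-04) and the promoter peaks (53.1%, q = 6.4e-19). The former was not called with a 5 kb promoter limit (q = 0.0901) or where Hand2 had to cover 50% of the Gli3 peak (q = 0.449). It was not told apart from the peaks of both tissues (23.6%, q = 0.811), but exceeded the distal ones among them by 12.4 points (q = 1.5e-05) and, with a 500 bp promoter limit, the peaks of both tissues by 10.7 points (q = 1.8e-04). The AP-2 motif GCCNNNGGC was lower than in the distal peaks with Hand2 (16.9% against 24.8%, q = 0.0221) and in the promoter peaks (29.3%, q = 1.9e-05). Against the promoter peaks, the homeodomain motifs TAATTA (3.23% against 0.342%, q = 4.2e-04) and TAATCC (4.73% against 1.94%, q = 0.0409), the forkhead motif TGTTTAC (6 windows against 0 of 878, q = 0.00561) and the Tead motif GGAATGT (2.74% against 0.797%, q = 0.0409) were higher. The Ets motif CCGGAAG (3.73% against 9.23%, q = 0.00265) and the CTCF core (0.249% against 2.39%, q = 0.0221) were lower. The promoter peaks were chosen by nearness to a 5′ end, and their windows had a median GC content of 70.0% against 55.0%. Differences from them in these motifs, in 8-mers or in repeats therefore cannot be told apart from the difference in place. The part of GC content in them was not tested. In all, 4 of the 30 motifs were called against the distal peaks with Hand2, 9 against the promoter peaks and 8 against the peaks of both tissues. Higher in the MNP-only distal peaks without Hand2 were 1, 5 and 1 of these.

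That 1 motif, higher in each comparison, was the left REST arm with its preceding bases, TTCAGCACC. It stood in the central 200 bp of 53 of the 402 peaks (13.2%, interval 10.2 to 16.8). The distal peaks with Hand2 had it in 12 of 468 (2.56%, q = 2.4e-08), the promoter peaks in 4 of 878 (0.456%, q = 8.7e-22) and the peaks of both tissues in 6 of 814 (0.737%, q = 4.8e-19). Over all 70762 entries of the 3 lists the share was 0.411%, and none of the 804 windows 2 kb away held it. The difference from the distal peaks with Hand2 was 10.6 points, and 6.45 points with repeat-rich windows left out (q = 0.00133) and 5.94 points where Hand2 had to cover 50% of the Gli3 peak (q = 0.00828). Of the 53 peaks, 16 had neither of the paired arrangements described next.

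Both arms stood together at 2 spacings. When CAGCACC and GGACAG were searched in this order at every distance up to 30 bp, a 2 bp gap was found in 23 peaks (5.72%) and a 9 bp gap in 28 (6.97%), while no other gap occurred in more than 3. The sets did not overlap, so that 51 peaks had one or the other, and neither overlapped with the 11 peaks that held a cGBM in the window. The 2 bp gap was also found in 20 of the distal peaks with Hand2 (4.27%), a share not told apart (difference 1.45 points, interval -1.47 to 4.55, q = 0.355). Only 1 of the promoter peaks and 1 of the peaks of both tissues had it (q = 6.9e-11 and 2.0e-10). The 9 bp gap stood in 2 of the distal peaks with Hand2 (0.427%, q = 5.6e-08) and in none of the 878 promoter peaks (Wilson upper bound 0.436%, q = 1.3e-14) or of the 814 peaks of both tissues (upper bound 0.470%, q = 4.8e-14). Arm pairs were chosen after these peaks were seen, and the adjustment does not cover the search over gaps. Peaks with the 9 bp pair often share repeated sequence, so that they are not independent counts. In the list of the whole face, 3 of 5752 windows held the 2 bp pair and 0 the 9 bp pair. In the Hand2 list, 64 and 11 of 59583 windows did.

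**Figure D2:**
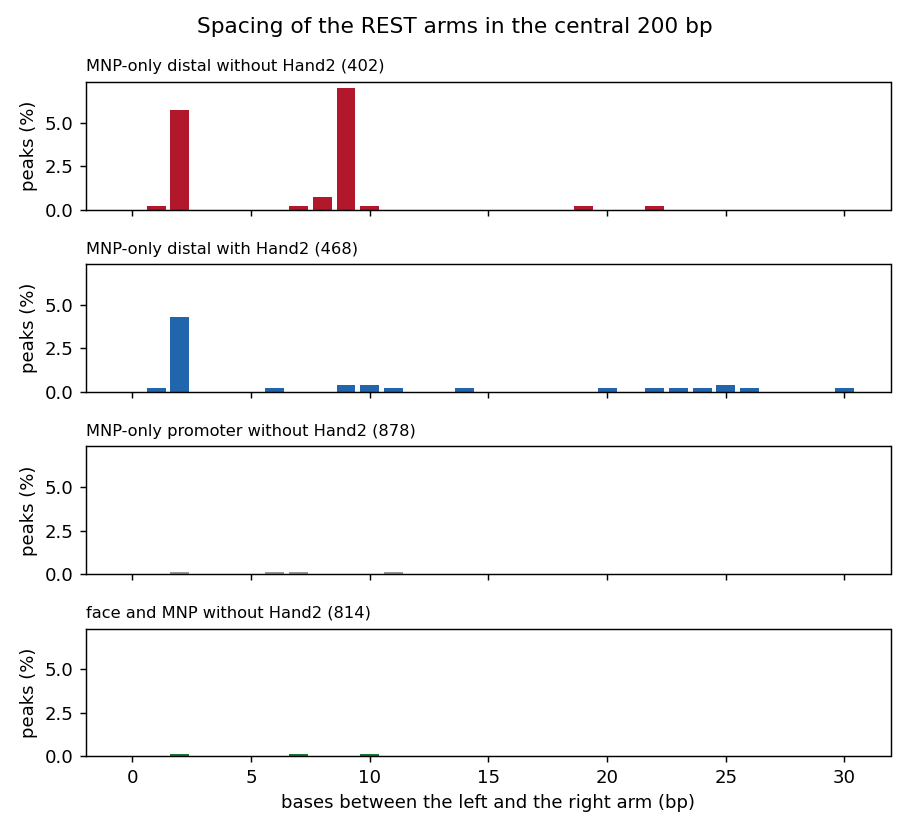
Share of peaks (y axis, %) whose central 200 bp hold CAGCACC followed by GGACAG, by the number of bases between them (x axis, bp), for the 4 classes of Gli3 MNP peaks. The MNP-only distal peaks without Hand2 have 2 high bars, 5.72% at 2 bp and 6.97% at 9 bp, and the distal peaks with Hand2 have 1, 4.27% at 2 bp.

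The assembled chromosomes hold 620 pairs with a 2 bp gap. The 402 peaks contained 25 of them (4.03%), the other Gli3 MNP peaks 51, the whole face peaks 4 and the Hand2 peaks 96. Of 619 pairs with a 9 bp gap, 46 (7.43%) lay in the 402 peaks, 4 in the other Gli3 MNP peaks, 0 in the whole face peaks and 12 in the Hand2 peaks. These counts, and the surroundings of both kinds of peak given next, are descriptions without a test. The 23 peaks with the 2 bp pair had unique centres, a median of 0% soft-masked bases and a median width of 302 bp, and 9 of them lay in introns and 12 between genes. The intron sites printed above belong to *Nsf*, which encodes an ATPase of vesicle fusion, *Syt7*, a synaptotagmin, *Csmd2*, *Crtac1*, *Dab1*, an adaptor of reelin signalling, *Crhr2*, a corticotropin-releasing hormone receptor, *Megf11* and *Vrk3*. The 14 peaks outside introns of protein-coding genes lay 3467 to 176875 bp from their nearest 5′ ends, those of *Cep170*, *Gm11634*, *Cacng4*, *Cd300ld3*, *Lhx2*, *Ythdf1*, *Kcnd3*, *Psmb2*, *Igsf21*, *Nptx2*, *Lypd5*, *Gp2*, *Isx* and *Swsap1*. No test for a class of genes was made. By position, 21 of the 25 pairs (84.0%) lay within 50 bp of the midpoint of the peak.

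The 28 peaks with the 9 bp pair lay between genes in 26 cases, with a median of 63.2% soft-masked bases, a median width of 375 bp and a median distance of 69567.5 bp to a 5′ end. At least 50% of the window was soft-masked in 21 of them and less in 7, and 8 had a central 75-mer that occurred up to 8 times in the genome. Whole peaks held 46 pairs, and the 9 bases between the arms were AGCCTCGAT in 19 of them and AGCCTCAAT in 8. Where 1 strand of a peak held successive pairs, the step was a multiple of 29 bp in 11 of 17 cases, the smallest of these being 58 bp. The printed repeats nearest *Esp22* and *Scgb2b21* show the intervening units with a changed arm. The peak nearest *Gpatch2l* had a single pair in a window without soft-masked bases. Of the 46 pairs, 17 (37.0%) lay within 50 bp of the midpoint. With repeat-rich windows left out, the difference from the distal peaks with Hand2 fell from 6.54 to 1.75 points (7 of 320 peaks, p = 0.0369 by Fisher's exact test and not adjusted) and the other 2 to 2.19 points. Windows were left out by soft-masking alone, which does not mark every repeat. The *Asrgl1* window was 23.5% soft-masked, but the bases next to its pair also stand beside pairs of the printed repeats. The 7 peaks are therefore not shown to lie outside the repeat.

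**Figure D3:**
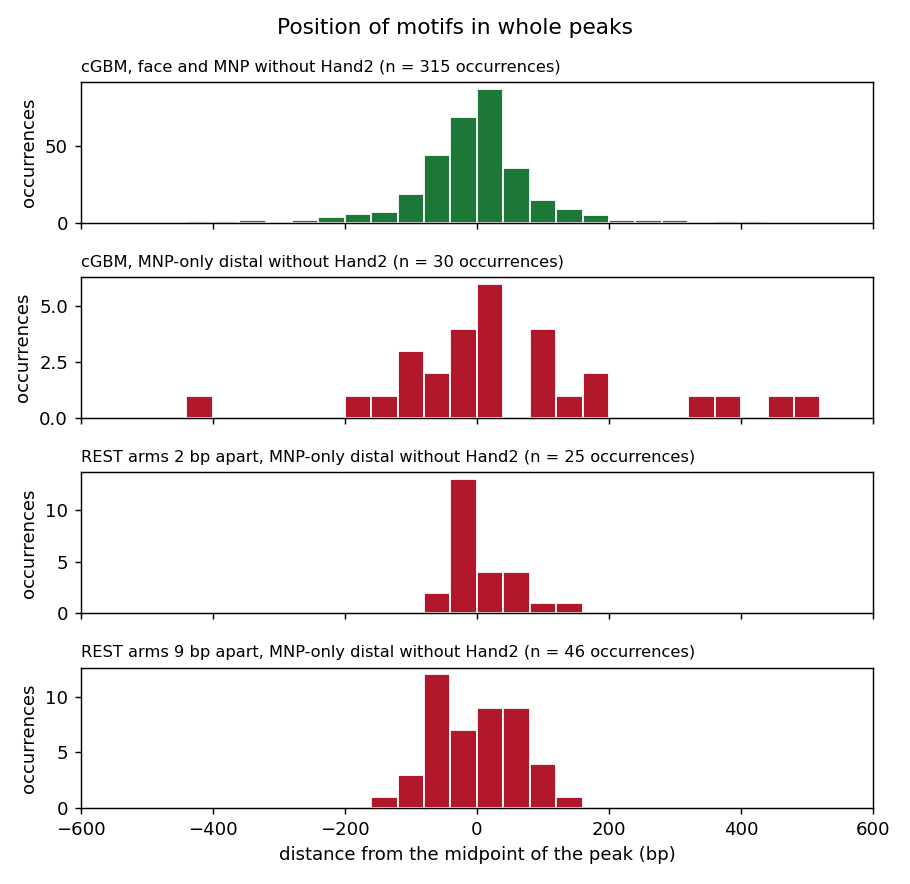
Number of occurrences (y axis) of the cGBM and of both arm pairs by distance from the midpoint of the peak (x axis, bp, bins of 40 bp), with the cGBM in the peaks of both tissues at the top and the 3 motifs in the MNP-only distal peaks without Hand2 below it. The 2 bp pair is within 50 bp of the midpoint in 84.0% of occurrences and the cGBM of the MNP-only distal peaks in 36.7%, with 1 of its occurrences beyond the plotted 600 bp.

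The scan of all 32896 8-mers led to the same sequences. Called at q under 0.05 were 110 8-mers against the distal peaks with Hand2 (0.334% of those tested), 406 against the promoter peaks (1.23%) and 233 against the peaks of both tissues (0.708%). Of these, 103, 261 and 188 were more frequent in the MNP-only distal peaks without Hand2, and 93 of them were so in all 3 comparisons. Many overlap one another in sequence. Of the 8-mers that were more frequent, 81, 140 and 101 had at least 50% of their windows among the 28 peaks with the 9 bp pair. Against the distal peaks with Hand2 the 5 smallest p-values belonged to TCCATCGA (33 windows against 0), AAATTTTC (35 against 1), ACAGCAAC (31 against 0), AAATTTCA (34 against 1) and AAATTTTA (29 against 0), which all occur on one strand or the other of the printed repeats. Against the promoter peaks GCTGTCCA (67 against 9), ATGGACAG (48 against 2), GGTGCTGA (68 against 17), GTGCTGAA (59 against 11) and ATTTCAGC (34 against 0) led, and these hold all or part of an arm on one strand. GCTGTCCA, GTGCTGAA and GGTGCTGA also led against the peaks of both tissues (12, 9 and 16 of 814 windows there), followed by AAATTTTC and TCCATCGA. Less frequent than in the peaks of both tissues were above all the cGBM and sequences that overlap it, ACCACCCA (9 against 221), GACCACCC (11 against 225), CCACCCAC (11 against 174), GGACCACC (5 against 135) and AGACCACC (8 against 129). Like the cGBM difference above, these are tied to the selection by whole face Gli3 peaks. The 8-mers below the distal peaks with Hand2 and the promoter peaks were rich in G and C, led by GCCCGCGC (12 against 49) and CCCGCGGC (11 against 102). With windows of at least 50% soft-masked bases left out, no 8-mer was called against the distal peaks with Hand2 by Fisher's exact test, where 687 had an unadjusted p under 0.05, and 68 and 35 were called in the other comparisons.

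Repeats and sequence with copies were frequent. At least 50% of the central 200 bp was soft-masked in 82 peaks (20.4%, interval 16.7 to 24.6), against 9 of the distal peaks with Hand2 (1.92%, q = 1.5e-19), 7 of the promoter peaks (0.797%, q = 1.9e-34) and 43 of the peaks of both tissues (5.28%, q = 1.3e-14). With sequence present in copies left out, the share was 11.7% (39 of 334), against 1.62%, 0.233% and 4.98% in the same order (q = 1.2e-08, 4.1e-19 and 1.4e-04). No base was soft-masked in 173 of the 402. The central 75-mer, as long as the reads, occurred more than once in the genome in 68 peaks (16.9%), at most 1024 times. The shares in the other classes were 7.69% (q = 4.3e-05), 2.05% (q = 3.2e-20) and 1.23% (q = 1.5e-23). No source used here says how reads with several equal matches were treated, and the part of such reads in these peaks was not tested. With the 68 peaks left out, 334 remained, and the shares with the REST pairs were 6.89% for the 2 bp gap and 5.99% for the 9 bp gap.

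In 8 stretches 3 or more of the 402 peaks followed each other with at most 20 kb from start to start, 37 peaks in all. The longest row was at the start of chromosome 9, where 10 peaks lay between positions 3005741 and 3038305 with a median of 97.0% soft-masked bases. That row also held 5 other Gli3 MNP peaks, the chromosome 6 rows given next 1 and 3, and the remaining stretches none. On chromosome 6, 9 peaks in 2 rows, from 47654806 to 47681926 and from 47758258 to 47778415, lay between *Ezh2*, which encodes a histone methyltransferase, and *Pdia4*, a protein disulfide isomerase gene. Their central 75-mers occurred 4 to 18 times in the genome, and the median step was 4518 bp in the first row. *Ezh2* and *Pdia4* were thus the genes next to the most peaks (9 each), followed by *Zfy1* on chromosome Y (7) and by *Gm10717* and *Gm10721* (4 each), which tied with 5 other genes and came first by name. Chromosome Y held 17 of the 402 peaks (4.23%) and no peak of the 3 comparison classes (q = 2.2e-06, 3.9e-09 and 8.6e-09). Over the whole lists it held 18 of the Gli3 MNP peaks, 2 of the whole face peaks and 20 of the Hand2 peaks. A peak enters a comparison class only by touching a Hand2 or whole face peak or by nearness to a 5′ end. The q-values for chromosome Y are therefore tied to the selection and are no independent result. Per megabase chromosome Y held 0.185 of the 402 peaks, against 0.254 on chromosome 11, the highest value, and 0.0409 on chromosome X. Rows of 4, 3 and 4 of its peaks are among the stretches above, so that these are not independent counts. Of the 17, 15 were in windows at least 50% soft-masked and 9 had a central 75-mer with copies. With copies left out, 8 of 334 peaks (2.40%) lay on chromosome Y. The sex of the pooled embryos is not stated, and its part in these counts was not tested.

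**Figure D4:**
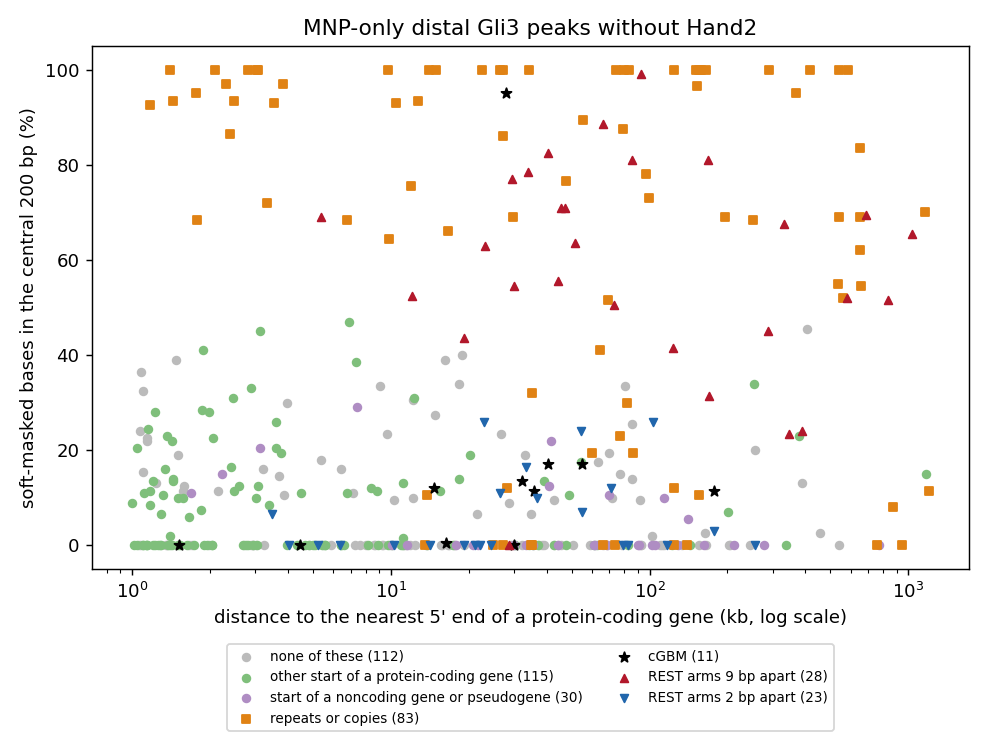
Each of the 402 MNP-only distal Gli3 peaks without Hand2 by its distance to the nearest 5′ end of a protein-coding gene (x axis, kb, log scale) and the soft-masked share of its central 200 bp (y axis, %), with each peak counted once in the first fitting kind in the order arms 2 bp apart, arms 9 bp apart, cGBM, repeats or copies, another coding start, noncoding start and none. Peaks with the 9 bp pair lie mostly above 50%, and those with the 2 bp pair at or below 26.0%.

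Counted once each, 23 peaks held the 2 bp pair, 28 the 9 bp pair and 11 the cGBM. A further 83 were rich in repeats or had copies, 115 lay at another start of a protein-coding gene and 30 at a noncoding start. The remaining 112 (27.9%) had none of these features. Those 112 had a median width of 332 bp, a median GC content of 53.0% and a median distance of 15227.5 bp to a 5′ end, with 44 in introns and 55 between genes. Peaks at another coding start were wider (median 617 bp) and richer in GC (68.0%). These groups were drawn after the data were seen and are a description.

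The nearest protein-coding genes on either side of the 402 peaks numbered 692, or 3.15% of all. Of the genes grouped by role, 3 of 21 in the Hedgehog pathway were next to a peak (14.3%), namely *Gli2*, the main activator of the family, *Foxd1*, a forkhead TF gene and Hedgehog target, and *Ptch1*, the Hedgehog receptor. The *Gli2* peak, chr1:119047891-119048348, lay in an intron 5499 bp from the 5′ end. The *Foxd1* peak, chr13:98365778-98366461, lay between genes at 11878 bp. The *Ptch1* peak, chr13:63555907-63556282, lay in an intron 17503 bp from the 5′ end and 87 bp from a whole face Gli3 peak, the smallest such distance among the 402. None of these 3 held a GACCACCC. The central 300 bp of the *Ptch1* peak, with both CAGATG E-boxes in capitals, and the central 200 bp of the *Gli2* peak, which has neither GACCNCCC nor CAGATG, read as follows on the plus strand.
*Ptch1* intron, chr13:63555945-63556244, plus strand: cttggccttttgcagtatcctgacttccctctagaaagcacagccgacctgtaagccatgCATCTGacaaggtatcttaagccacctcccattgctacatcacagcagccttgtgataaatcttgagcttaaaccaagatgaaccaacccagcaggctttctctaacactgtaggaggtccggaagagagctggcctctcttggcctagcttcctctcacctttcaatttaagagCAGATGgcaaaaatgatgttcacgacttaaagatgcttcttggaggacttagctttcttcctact
*Gli2* intron, chr1:119048020-119048219, plus strand: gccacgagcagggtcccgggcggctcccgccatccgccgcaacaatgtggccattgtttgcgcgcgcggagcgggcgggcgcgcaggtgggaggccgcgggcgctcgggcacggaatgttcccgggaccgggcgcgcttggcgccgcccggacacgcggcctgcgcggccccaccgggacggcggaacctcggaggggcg

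Of 23 genes of mandibular patterning, 4 (17.4%) were next to a peak, at a median of 2675 bp. *Lhx8*, a LIM homeodomain TF gene, had its peak in an intron at 1207 bp, 607 bp from another start of the gene. *Gsc*, which encodes a homeodomain TF of the jaw, had its peak at 2142 bp between genes and 799 bp from a Hand2 peak. *Prrx1*, at 3208 bp, is described above. Of 18 bone genes, 2 (11.1%) were next to a peak, *Satb1* at 20285 bp and *Twist2* at 168276 bp. The *Satb1* peak lay in a UTR exon of the gene, 325 bp from another start of a protein-coding gene. In the Wnt pathway 3 of 25 genes were, the receptor *Fzd2* at 3716 bp, the feedback inhibitor *Axin2* at 91576 bp and the ligand *Wnt3* at 146705 bp, the last through the *Nsf* peak with the 2 bp pair. *Eya1*, a transcriptional coactivator gene, was the single gene of 23 in skeletal muscle, at 2876 bp, and *Sox6*, a chondrocyte TF gene, the single one of 17 in cartilage, at 177934 bp with a cGBM. The *Sox6* peak lay in an intron of the gene, 1010 bp from another start of a protein-coding gene. None of the genes of the Fgf pathway (18), the Bmp and Tgf-beta pathway (24), the Notch pathway (16), neurons and glia (17) or epithelium (14) was next to a peak. Blood and endothelium had 2 of 16 (*Ptprc* and *Cdh5*, at 277013 and 457199 bp), and liver, a tissue that was not sampled, 1 of 13 (*Cyp3a11*, at 78172 bp through a peak with the 9 bp pair). Besides *Gsc*, a Hand2 peak lay within 1 kb of the peaks of *Sox6* (118 bp), *Axin2* (472 bp), *Fzd2* (510 bp), *Ptch1* (885 bp) and *Ptprc* (886 bp). The peaks of the other genes named from the lists lay farther from a Hand2 peak. The lists hold 13 to 25 genes, and their counts were read against the 3.15% of all genes without a test.

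Every entry of the Gli3 MNP list names a peak of each replicate, so that all 402 were called in both. The names also show how often a replicate peak was split. More than 1 called piece stood behind 138 of the 402 peaks (34.3%) in replicate 1 and behind 52 (12.9%) in replicate 2, and 254 (63.2%) had a single piece in both. Over all Gli3 MNP peaks, the shares were 47.0%, 18.1% and 50.6%. The highest peak number in the names was 19518 for replicate 1 and 6394 for replicate 2, so that the replicates did not enter with like numbers of calls. All 23 peaks with the 2 bp pair and all 28 with the 9 bp pair had a single piece in both replicates.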

How the data were processed

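Lists of Gli3 peaks (whole face; MNP) and of Hand2 peaks (MNP) were analysed, each from 2 replicates (6 samples). The authors aligned single reads of 75 bp to mm10 by bwa, and bedtools served to join peaks found in each replicate. Tool names, given without version, were taken from the submitters' processing notes (BWA, bedtools, HOMER), and no source used here names the caller of the replicate peaks. The deposited values are start and end positions with the names of the replicate peaks, and carry no score, so that depth is unknown and no peak could be ranked.

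Sequence was read from the GRCm38.p6 assembly, of the same build as the peaks, and genes from GENCODE vM21. A 200 bp window around the midpoint was searched on both strands for 30 motifs, fixed as exact letters, and for every 8-mer. Shares of windows were compared by two-sided Fisher's exact tests with Benjamini-Hochberg adjustment at 0.05, over 90 tests for the motifs and within a comparison for the 8-mers. Wilson intervals (95%) and Newcombe intervals of differences cover counting error only. Soft-masked bases are those the assembly marks as repeats. Copies are exact matches of the central 75 bp on either strand. Up- and downstream neighbours of a midpoint were taken as its genes, as in the study, and 13 lists of genes by role were counted.

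The named peaks and genes were the 6 peaks with the most GACCACCC, up to 3 genes of a list with the nearest peak, the 5 genes next to the most peaks and the 5 8-mers with the smallest p-values of each direction, of which the leading ones are given. Others are said to be chosen after their values were seen. Some items are not reported here. The peaks, the gene lists and the motifs were chosen with earlier results of these data known. The programs were tested on simulated windows. Python 3.11.15, numpy 2.4.6, pandas 2.3.3, scipy 1.17.1, statsmodels 0.14.6, numba 0.67.0 and matplotlib 3.10.9 were used.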

Additional observations from a re-analysis of the deposited data

How the results depend on the processing

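No paired analysis was possible because each group is deposited as 1 merged list. Every Gli3 MNP entry names both replicates, so the planned selection by 1 replicate's names removes no entry and says nothing about stability. Lists called from 1 replicate were not analysed here, and the planned test of peaks named from 1 replicate could not be run.

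The cGBM share, in a comparison tied to the selection, stayed below that of the peaks of both tissues under every alternative. Its difference from the distal peaks with Hand2 turned to 0.0689 points with a 500 bp promoter limit (q = 1), and that from the promoter peaks was 1.51 points and called with GACCACCCA (q = 0.0250) and -1.24 points with GACCNCCC (q = 0.805). Motifs called against the distal peaks with Hand2 numbered 12 over whole peaks and 7 over 400 bp, and against the peaks of both tissues 5 with a 5 kb limit. In the order distal with Hand2, promoter and both tissues, 8-mers called numbered 1360, 1313 and 497 over whole peaks and 314, 1309 and 463 over 400 bp. They numbered 0, 68 and 35 without repeat windows (687 with an unadjusted p under 0.05 in the first) and 57, 246 and 139 without peaks with copies, an alternative chosen after seeing the data. Over whole peaks, 188, 386 and 448 of these were more frequent in the MNP-only distal peaks without Hand2, against 103, 261 and 188 over 200 bp. A 50% Hand2 overlap gave 36 against the distal peaks with Hand2, and a 500 bp limit 199 against the promoter peaks. Differences of uncalled motifs that changed sign were CAGATG against the promoter peaks (-3.02 points over whole peaks), the 2 bp pair against the distal peaks with Hand2 (-2.01 points at 50% Hand2 overlap), the dGBM against the same (0.134 with a 500 bp limit, 0.0374 without repeat windows) and the GC box against both tissues (-0.730 with a 5 kb limit, while it was called at 10.7 points with a 500 bp limit, q = 1.8e-04). The REST arm kept its direction and its calls under the other alternatives. The 9 bp pair kept its direction, with p-values that were not adjusted there, the largest 0.0369 without repeat windows, and the causes of the other changes were not tested. The number of peaks ran from 280 to 548 and that of next genes from 484 to 967.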
